A study of Mus musculus and Rattus norvegicus with 6 samples.

Results

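The SLC25 family is the mitochondrial carrier family, whose proteins sit mostly in the inner mitochondrial membrane and exchange metabolites between the cytosol and the matrix. Its members were taken as all probe sets whose only annotated gene symbol begins with Slc25a. In mice these were 93 of 45037 probe sets, for 44 of the 18193 genes named by a single symbol. In rats they were 58 of 31042 probe sets, for 40 of 14217 genes. The species shared 38 of these symbols, and 46 occurred in either.

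A carrier of this family is a small membrane protein built from repeated modules that moves one metabolite against another, such as ADP against ATP or citrate against malate. In the liver these exchanges link the matrix steps of fatty acid oxidation, the urea cycle, gluconeogenesis and heme synthesis to the steps in the cytosol. Citrate leaves through SLC25A1 to feed lipid synthesis, acylcarnitines enter through SLC25A20 to be oxidised, and ornithine enters through SLC25A15 for the urea cycle.

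Liver RNA of males aged 20 weeks was measured on short-oligonucleotide arrays 6 h after an intraperitoneal injection. Leptin, the satiety hormone secreted by adipose tissue, is missing in the mutants. The mice had a C57/BL6J background: WT littermates given saline, Lepob/Lepob given saline and Lepob/Lepob given recombinant murine leptin. The rats had an F344/NSlc background: WT littermates given saline, Lepmkyo/Lepmkyo given saline and Lepmkyo/Lepmkyo given the same leptin. The source field of the rats names the mouse allele, so their genotype was taken from their descriptions. No WT animal received leptin. Each group was 1 array, and whether it carried 1 animal or a pool was not stated. No spread between animals could be measured, so no difference below has a test or a p-value, and every direction below is read from a pair of arrays.

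Signals are given in the order WT saline, mutant saline, mutant leptin, for the brightest probe set of a gene unless said otherwise. Signals under 82.7 in mice and 97.0 in rats, the medians over every deposited value of the species, were raised to that floor before a ratio was taken. Where one of the arrays stayed below that level, the ratio is only a lower limit and is written "at least". Of the members, 38 of 44 reached the floor on an array of the mouse genotype comparison (mutant saline against WT saline) and 33 of 40 on one of the rats. Slc25a2, Slc25a18, Slc25a31, Slc25a41 and Slc25a54 in mice, and Slc25a18, Slc25a27, Slc25a31, Slc25a34, Slc25a35, Slc25a41 and Slc25a53 in rats, were under it on all 3 arrays of their species. Different probe sets of one gene give the only measure of error at hand. Their log2 genotype ratios had a pooled SD of 0.44 over 16 members with several measured probe sets in mice and 0.49 over 10 members in rats.

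Liver identity was checked on hepatocyte markers, and all 7 measured in each species were above the floor on every array. Their summed signal was 291761, 220952 and 221236 on the mouse arrays and 210139, 172852 and 187899 on the rat arrays, so the WT array was highest in both. Beside this, 5 of 9 Kupffer cell and macrophage markers were at least 1.5-fold higher in the mutant mouse and 1 was lower, with summed signals of 17548.8, 26487.2 and 24265.1. In the mutant rat 1 of 8 was higher and 0 lower, with summed signals of 12838.3, 16083.6 and 16446.5. Of stellate cell and matrix markers, 3 of 6 were at least 1.5-fold higher in the mutant mouse and 0 lower, with summed signals of 10963.9, 17950.1 and 18315.1. In rats 3 of the 5 measured passed 2-fold upward and 0 downward, with summed signals of 2115.5, 7023.6 and 7231.2. Of bile duct markers, 2 of 3 measured were at least 1.5-fold lower in the mutant mouse and 3 of 3 higher in the mutant rat. Their summed signals were 527.7, 268.3 and 295.5 in mice and 490.6, 934.3 and 966.5 in rats. The part of these cell types in the results below was not tested. In bulk liver, fewer cells of a type and less RNA per cell cannot be told apart. Lep itself was under the floor on all 6 arrays, so its probe sets do not check the genotype labels.

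Slc25a30, Slc25a42 and Slc25a4 were the members at least 1.5-fold apart in the same direction in both mutants, and Slc25a10 and Slc25a20 the ones at least 2-fold higher in the mutant mouse, so their promoters are shown. Each sequence is the 250 bases before the annotated start, 5′ to 3′ on the gene's strand, from RefSeq on GRCm38.p6. Capitals mark matches to the motifs listed after them. The windows are chr14:75787038-75787287 (minus strand) for Slc25a30, chr8:70212282-70212531 (minus) for Slc25a42, chr8:46211063-46211312 (minus) for Slc25a4, chr11:120491587-120491836 (plus) for Slc25a10 and chr9:108661886-108662135 (plus) for Slc25a20.
Slc25a30: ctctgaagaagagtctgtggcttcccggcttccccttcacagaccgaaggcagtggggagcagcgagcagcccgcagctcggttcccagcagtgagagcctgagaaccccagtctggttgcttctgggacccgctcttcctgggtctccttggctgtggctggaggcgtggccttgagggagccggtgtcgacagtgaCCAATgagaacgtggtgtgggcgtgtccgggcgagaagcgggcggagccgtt
Slc25a42: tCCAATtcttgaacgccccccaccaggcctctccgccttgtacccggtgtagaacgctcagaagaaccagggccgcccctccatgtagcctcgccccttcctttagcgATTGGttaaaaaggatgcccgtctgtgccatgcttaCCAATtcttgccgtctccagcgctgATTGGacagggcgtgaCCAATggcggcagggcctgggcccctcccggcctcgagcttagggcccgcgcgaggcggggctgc
Slc25a4: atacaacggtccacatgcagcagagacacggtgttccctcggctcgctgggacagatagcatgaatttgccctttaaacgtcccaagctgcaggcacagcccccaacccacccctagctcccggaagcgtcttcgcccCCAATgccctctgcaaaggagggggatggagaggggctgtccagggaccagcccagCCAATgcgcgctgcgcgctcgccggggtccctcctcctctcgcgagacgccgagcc
Slc25a10: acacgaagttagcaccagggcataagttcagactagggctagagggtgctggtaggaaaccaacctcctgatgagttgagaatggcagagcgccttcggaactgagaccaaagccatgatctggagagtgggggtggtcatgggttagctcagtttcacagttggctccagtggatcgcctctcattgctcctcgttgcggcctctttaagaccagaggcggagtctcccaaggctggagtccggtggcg
Slc25a20: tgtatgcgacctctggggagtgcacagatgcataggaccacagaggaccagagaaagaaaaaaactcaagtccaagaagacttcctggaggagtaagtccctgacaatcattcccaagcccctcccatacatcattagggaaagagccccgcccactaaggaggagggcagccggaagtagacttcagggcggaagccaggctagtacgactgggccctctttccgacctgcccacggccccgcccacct

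A window was listed for 34 of the 44 mouse members. On both strands, 10 motifs were searched in all 32851 windows, a set picked after matches in these genes had been seen. The CCAAT box (CCAAT) was the only one with a match in the 5 windows shown, and 33.8% of all windows hold it. Of 36 family genes with a window, some with several and not all among the 44 members, 18 hold it in any window. Slc25a30 had it at a single place, from 52 to 48 bases before the start, Slc25a4 at 2 places and Slc25a42 at 5, and 0.213% of all windows hold as many or more. The windows of Slc25a10 and Slc25a20, which were higher in the mutant mouse, held no match to any of the 10. The nuclear receptor half-site AGGTCA (14% of all windows) matched in Slc25a34, Slc25a39, Slc25a45 and Slc25a47. Its forms AGGGGTCA (0.974%) and AAAGGTCA (1.34%), the latter of which contains it, matched in Slc25a45 and Slc25a34. The cAMP response element TGACGTCA (1.55%) matched in Slc25a25 and Slc25a36, the AP-1 site TGAGTCA (4.46%) in Slc25a13, and the E-box CACGTG (6.02%) in 7 members. No member matched AGGTCANAGGTCA (0.0335%), TCAAGGTCA (0.387%), which also contains the half-site, or the forkhead site TGTTTAC (3.17%). A match is a description of letters, not of binding.

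In Lepob/Lepob mouse liver the carriers for dicarboxylates and for carnitine were higher than in WT, and a relative of the uncoupling proteins was far lower. Slc25a10 and Slc25a20 were at least 2-fold higher (2 of 38 measured members, against 4.46% of all genes) and Slc25a30 was at least 2-fold lower (1 of 38, against 3.71%). At 1.5-fold the counts were 7 higher, beside 12.3% of all genes, and 5 lower, beside 12.6%. These shares, 18.4% and 13.2% of the members, and the 5.26% and 2.63% at 2-fold differ from the background by few genes. The members had a median log2 ratio of 0.05, and that of all genes -0.03. The split of 2 higher and 1 lower at 2-fold was 5 and 1 after quantile normalization and 6 and 1 with arrays centred on their median. That centring moved the median of all genes to 0.22 and that of the members to 0.30. The shares of all genes at 2-fold under these scalings are not given here, so the splits cannot be read against a background.

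**Figure D1:**
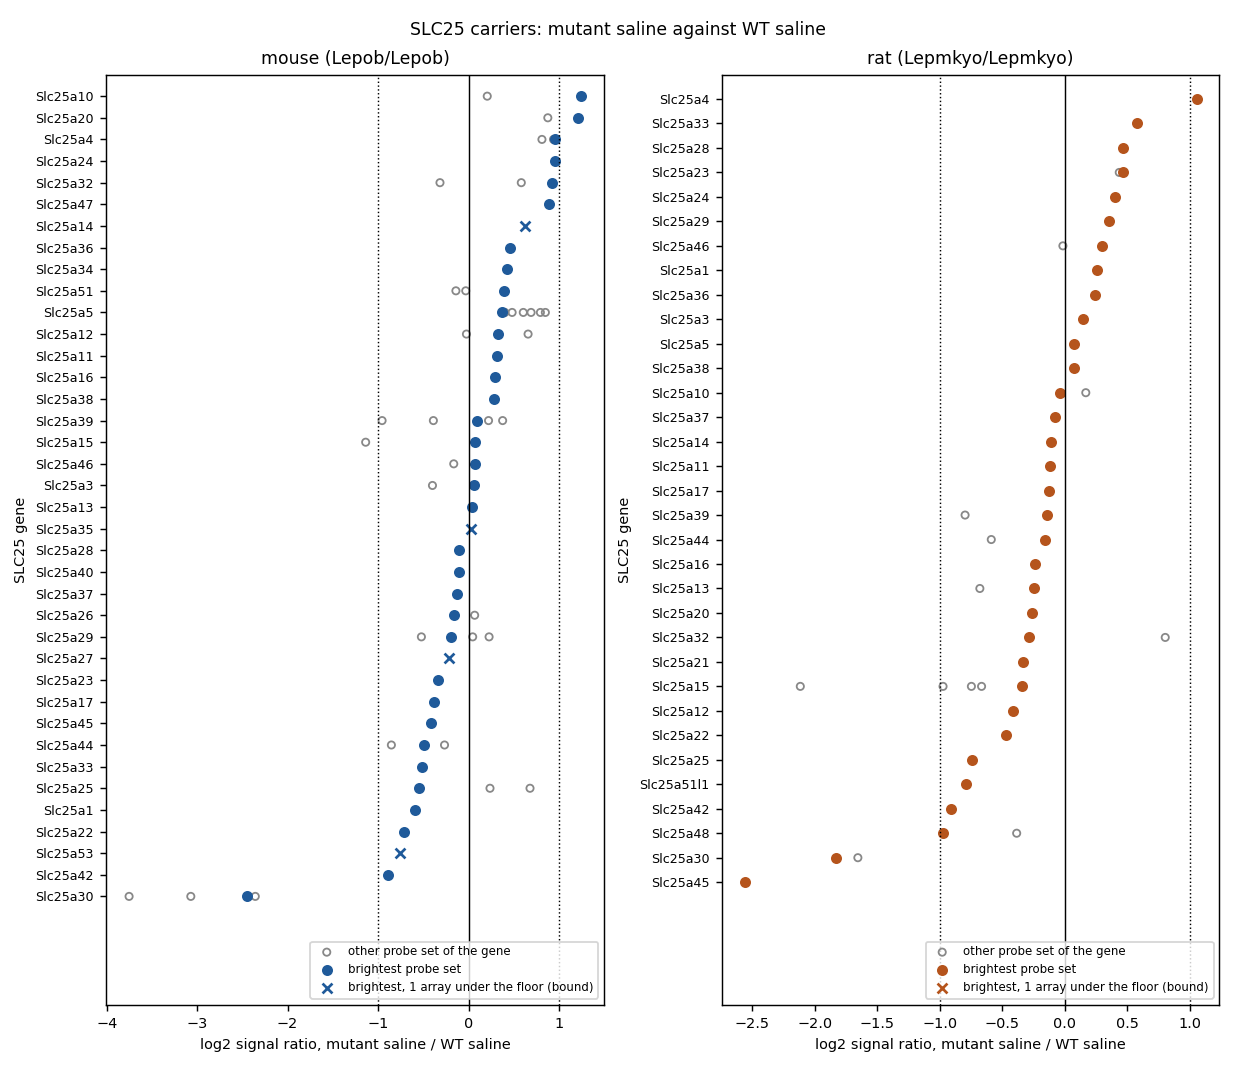
Log2 signal ratio of mutant saline over WT saline for each measured SLC25 gene in mice (left) and rats (right), sorted by ratio, with filled points for the brightest probe set, crosses where an array is under the floor, hollow points for other probe sets and dotted lines at 2-fold. Slc25a30 in mice and Slc25a45 and Slc25a30 in rats lie farthest to the left, and most other genes lie within 1.5-fold.

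Slc25a30, the kidney mitochondrial carrier and a relative of the uncoupling proteins, had signals of 9620.5, 1767.6 and 1974.4. Both mutant arrays were well below the WT array, and the saline array was 5.44-fold below it. Among the 11956 genes measured, the ratio ranked 31 from the lowest. All 4 measured probe sets were lower in the mutant, between 5.13-fold and, as a lower limit, 13.5-fold. The other members of this group were dim. Slc25a14, the brain carrier also called UCP5, had 33.3, 127.5 and 28.9, so only the mutant saline array was above the floor, at least 1.54-fold higher. Slc25a27, or UCP4, was above the floor on the WT array alone, with 96.0, 6.5 and 32.1. Family members under other symbols were listed apart. Ucp1 was under the floor on all 3 arrays, and Ucp3 had 59.4, 125.0 and 84.3.

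Carriers of carnitine and cofactors differed in both directions, 2 of the 7 being at least 1.5-fold higher and 1 lower. Slc25a20, the carnitine-acylcarnitine carrier of fatty acid oxidation, had 6782.1, 15666.9 and 15288.3. Both mutant arrays were high, and the ratio of the saline arrays was 2.31-fold. Its other probe set had 3562.4, 6534.3 and 6218.2, or 1.83-fold. Slc25a42, which brings coenzyme A into the matrix, ran the other way with 927.9, 500.3 and 626.4, or 1.85-fold lower. Slc25a32, the folate and FAD carrier, had 291.7, 553.6 and 340.1, high on the mutant saline array alone. Another probe set of Slc25a32 was 1.5-fold higher, and the dimmest, with both mutant arrays under the floor, at least 1.25-fold lower. For Slc25a51, the NAD carrier, the brightest probe set was 1.31-fold higher, and the others were 1.10-fold and 1.02-fold lower. Slc25a16 was 1.22-fold higher, Slc25a17, the peroxisomal cofactor carrier, 1.31-fold lower, and Slc25a26, the S-adenosylmethionine carrier, 1.12-fold lower.

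The list of carnitine shuttle and fatty acid entry enzymes, which holds no member, had a median log2 ratio of 0.54 in the mutant mouse, and 5 of its 10 measured genes were at least 1.5-fold higher while none was lower. Cpt1a, which makes the acylcarnitines that SLC25A20 carries, had 4588.0, 11099.2 and 12644.6, or 2.42-fold higher. Slc22a5, the carnitine transporter of the cell surface, had 750.8, 2128.7 and 2155.8, or 2.84-fold higher. In both genes the mutant arrays lay together, above the WT array. Crat, Cpt2 and Acadm were 1.86-fold, 1.56-fold and 1.69-fold higher.

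Among carriers of di- and tricarboxylates, 1 of 5 was at least 1.5-fold higher and 1 lower. Slc25a10, the dicarboxylate carrier for malate and succinate, had 2587.7, 6135.1 and 5517.8, or 2.37-fold higher in the mutant. Its other probe set did not repeat this size: 1807.6, 2084.6 and 1599.5, or 1.15-fold, so the median over its probe sets, a log2 ratio of 0.73, is short of 2-fold. Slc25a1, the citrate carrier, had 4308.8, 2866.3 and 2768.1, highest on the WT array and 1.5-fold lower in the mutant. Slc25a11, the oxoglutarate-malate carrier, had 2013.1, 2492.3 and 2204.2, or 1.24-fold higher. Of 9 measured genes of citrate export and lipogenesis, none was 1.5-fold higher and 2 were lower. Acly, which splits the exported citrate, had 6439.6, 3461.1 and 3353.1, or 1.86-fold lower. Acacb was 1.89-fold and Fasn 1.40-fold lower, while Acaca was 1.46-fold and Me1 1.25-fold higher.

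Of the nucleotide and phosphate group in mice, 2 of 8 measured members, Slc25a4 and Slc25a24, were at least 1.5-fold higher in the mutant and 0 lower. Slc25a4, the ADP-ATP carrier of heart and muscle, had 367.4, 713.4 and 637.2, or 1.94-fold higher, and its 3 measured probe sets gave 1.75-fold to 1.94-fold. Slc25a5, the ADP-ATP carrier found in most tissues, had 20674.6, 26632.4 and 25440.5, or 1.29-fold higher. All 8 of its probe sets were higher, 1.29-fold to 1.80-fold. Slc25a24, a calcium-regulated ATP-Mg and phosphate carrier, had 233.6, 451.3 and 509.3, or 1.93-fold higher. Its relative Slc25a23 had a signal of 1405.9 on WT and 1108.7 on mutant saline, or 1.27-fold lower. For Slc25a25, of the same kind, the probe sets differed in sign. The brightest had 1457.1, 995.2 and 916.7, or 1.46-fold lower, and the next 154.6, 247.4 and 241.6, or 1.60-fold higher. Slc25a3, the phosphate carrier, had 20510.8, 21405.3 and 20895.0, or 1.04-fold higher, but its other, dim probe set, with the mutant array under the floor, was at least 1.32-fold lower. Slc25a33, a pyrimidine nucleotide carrier, had 1594.0, 1118.5 and 1317.4, or 1.43-fold lower.

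Of 8 measured carriers of amino acids and related compounds, none was 1.5-fold higher and 1 was lower. Slc25a22, a glutamate carrier, had 1662.7, 1017.2 and 1252.0, or 1.63-fold lower in the mutant. Slc25a13, the aspartate-glutamate carrier of liver, had 4568.0, 4679.5 and 4144.1, or 1.02-fold higher, a sign that turned with quantile normalization (log2 ratio -0.05). Slc25a15, the ornithine carrier, had 13514.6, 14224.8 and 14503.7, or 1.05-fold higher, whereas its other probe set had 1296.9, 589.3 and 538.6, or 2.20-fold lower. Which of the probe sets follows the transcript was not tested. Slc25a44, the carrier of branched-chain amino acids, was lower on all 3 of its measured probe sets, 1.20-fold to 1.81-fold. Slc25a45 had 916.0, 685.9 and 782.9, or 1.34-fold lower. Of 7 urea cycle and related genes measured, 1 was at least 1.5-fold higher and 0 were lower, around a median log2 ratio of -0.19. The higher gene was Ass1, at 1.51-fold, on a probe set with 853.0, 1288.0 and 1325.1. Cps1 and Otc, far brighter at 44065.4 and 29037.8 on the WT array, were 1.41-fold and 1.43-fold lower. Whether the Ass1 probe set follows its transcript was not tested.

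Slc25a47, a carrier found mainly in liver, had 13555.8, 25048.2 and 25582.1. Both mutant arrays lay above the WT array, at 1.85-fold for saline. Slc25a53, without a known substrate, was above the floor on the WT array alone (139.6, 44.1 and 82.6), a ratio of at least 1.69-fold. The iron carriers were close to WT. Slc25a37, or mitoferrin 1, had 822.9, 752.3 and 631.2, or 1.09-fold lower, and its sign turned when arrays were centred on their median (log2 ratio 0.13). Slc25a28, mitoferrin 2, was 1.08-fold lower. The glutathione carriers Slc25a39 and Slc25a40 were 1.07-fold higher and 1.08-fold lower, though the probe sets of Slc25a39 differed in sign. Slc25a39 was up to 1.30-fold higher, but 1.31-fold lower on a bright probe set with 4165.5, 3179.4 and 3070.8. On a dim one, with the mutant arrays under the floor, it was at least 1.94-fold lower. Among transcripts listed as markers of mitochondrial content, 0 of 13 were 1.5-fold apart, with a median log2 ratio of 0.04. Their log2 ratios ran from -0.56 for Hspd1 to 0.53 for Tomm20, and the amount of mitochondria was not measured. Of 10 biogenesis regulators, 0 were 1.5-fold apart.

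**Figure D2:**
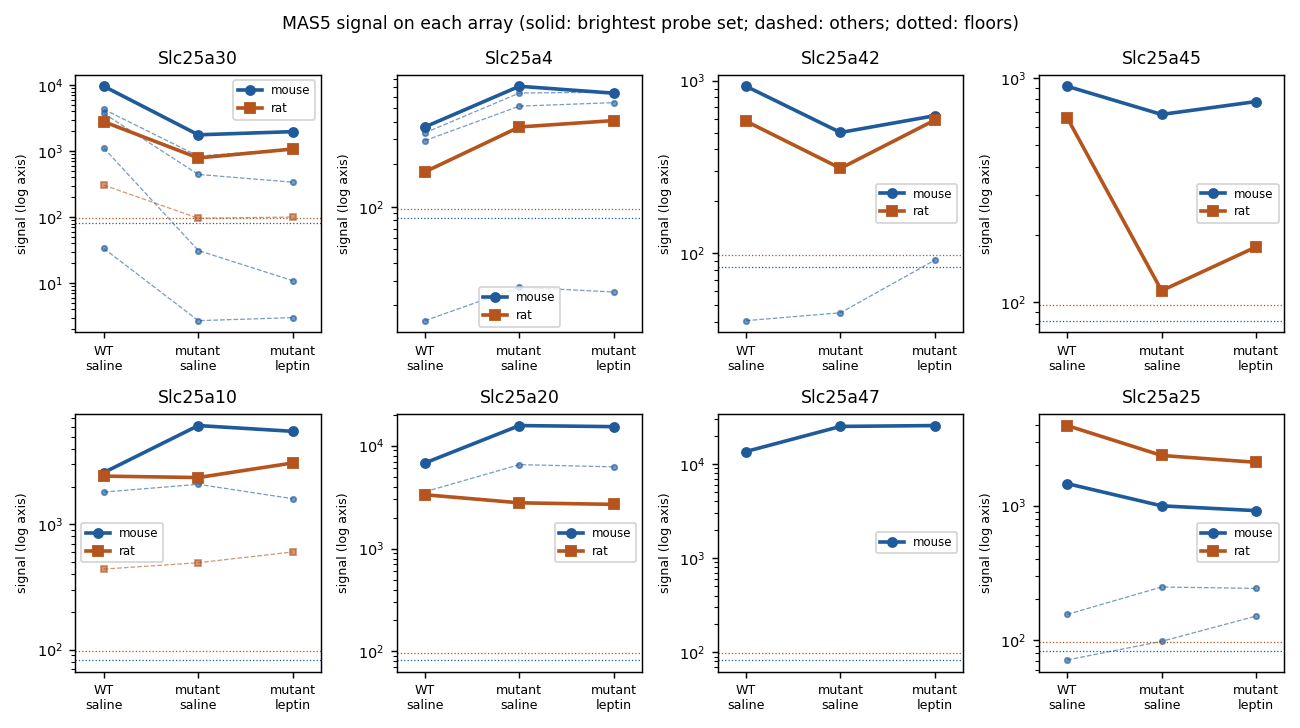
MAS5 signal (log axis) on the WT saline, mutant saline and mutant leptin array for 8 SLC25 genes in mice (blue circles) and rats (orange squares), with the brightest probe set solid, others dashed and the signal floors dotted. Slc25a30 is low on the mutant arrays of both species, the brightest probe sets of Slc25a10 and Slc25a20 are at least 2-fold above WT on the mutant saline array in mice and not in rats, and Slc25a42 of rats is low on the mutant saline array and near WT on the leptin array.

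In Lepmkyo/Lepmkyo rat liver the carriers farthest from WT were Slc25a45 and Slc25a30, both lower. Slc25a4 was the only member at least 2-fold higher (1 of 33, against 2.99% of all genes), and Slc25a30 and Slc25a45 were at least 2-fold lower (2 of 33, against 1.45%). At 1.5-fold, 1 member was higher, beside 10.2% of all genes, and 6 were lower, beside 5.92%. The 6 are 18.2% of the measured members, a larger share than that of all genes. The median log2 ratio was -0.12 over the members and 0.04 over all genes, and 21 of the 33 members and 4393 of all 9817 genes were below 0.

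Slc25a45, of the amino acid group, showed the lowest ratio of the family in rats, with 663.6, 112.5 and 176.2. The WT array was high and both mutant arrays were low, near the floor, with the saline array 5.90-fold below WT. This ratio ranked 7 from the lowest of 9817 genes. Since the mutant signals are dim, a floor at the 75th percentile of all values left a log2 ratio of -0.55. Slc25a30 had 2793.2, 787.8 and 1076.3, or 3.55-fold lower, ranking 21. Its other probe set had 305.3, 96.2 and 100.3, at least 3.15-fold lower. Slc25a14 was 1.08-fold lower, and Ucp2, the uncoupling protein of many tissues, had 185.7, 304.3 and 139.1, high on the mutant saline array.

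The group of amino acids and related compounds in rats had 2 of 9 measured members at least 1.5-fold lower and 0 higher. Slc25a48, a choline carrier, had 242.5, 123.5 and 210.2, or 1.96-fold lower, and its dimmer probe set was 1.31-fold lower. Slc25a15 had 10557.9, 8333.8 and 8340.1, or 1.27-fold lower. All 5 measured probe sets of Slc25a15 were lower in the mutant, up to 4.33-fold on one with 4171.4, 963.3 and 965.6. Slc25a13 had 10317.1, 8708.5 and 9656.0, or 1.18-fold lower, and its other probe set was 1.60-fold lower. Slc25a22 had 4507.2, 3252.1 and 2928.3, highest on the WT array and 1.39-fold lower in the mutant. Slc25a29, a carrier of basic amino acids, was 1.28-fold higher. Of 8 urea cycle and related genes, 1 was at least 1.5-fold lower and none higher. This was Asl, argininosuccinate lyase, with 12378.5, 5664.4 and 6610.2, or 2.19-fold lower.

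All 5 measured carriers of carnitine and cofactors were lower on the mutant rat array, 1 of them by at least 1.5-fold. This was Slc25a42, with 581.9, 310.0 and 591.1, or 1.88-fold lower. Its WT and leptin arrays lay together, and the mutant saline array was low. With the floor at the 75th percentile the log2 ratio of Slc25a42 was -0.36. Slc25a20 had 3332.7, 2781.5 and 2686.4, or 1.20-fold lower. Slc25a16 was 1.18-fold and Slc25a17 1.09-fold lower. Slc25a32 had 441.0, 362.8 and 318.1, or 1.22-fold lower, but its other probe set was 1.75-fold higher. Slc25a51l1, named after the NAD carrier, had 477.5, 276.2 and 297.1, or 1.73-fold lower. The carnitine shuttle list stood at 0 of 12 genes at least 1.5-fold higher and 2 lower, and its median log2 ratio was -0.30. The 2 were Crat, carnitine acetyltransferase, at 2.31-fold, and Slc22a5 at 2.68-fold. Cpt1a had 12576.2, 8747.5 and 9446.6, or 1.44-fold lower.

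No rat carrier of di- and tricarboxylates was 1.5-fold apart. Slc25a1 had 3199.9, 3833.9 and 3741.4, or 1.20-fold higher in the mutant. Slc25a10 had 2423.6, 2360.5 and 3086.3, or 1.03-fold lower, a sign that the median over its probe sets turns (log2 ratio 0.07). Slc25a11 had 3027.1, 2797.2 and 2964.5, or 1.08-fold lower. The enzymes downstream of exported citrate stood far higher in the mutant rat, as 5 of 7 measured genes of that list passed 1.5-fold upward and none downward, around a median log2 ratio of 1.52. Acly had 6007.3, 17247.6 and 18697.6, or 2.87-fold higher, and Fasn, fatty acid synthase, 4297.7, 20666.7 and 22150.2, or 4.81-fold. In both, WT was the low array.

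**Figure D3:**
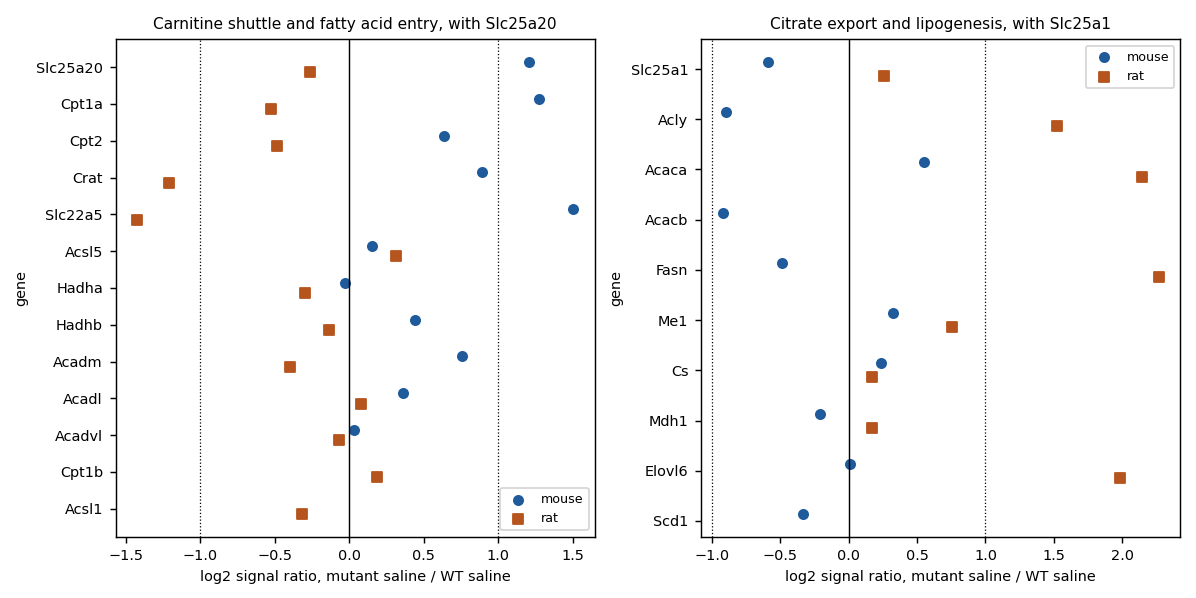
Log2 signal ratio of mutant saline over WT saline for Slc25a20 with the carnitine shuttle list (left) and Slc25a1 with the lipogenesis list (right), in mice (circles) and rats (squares), with dotted lines at 2-fold. Slc25a20, Cpt1a, Crat and Slc22a5 lie right of 0 in mice and left of 0 in rats, and Slc25a1, Acly and Fasn lie left of 0 in mice and right of 0 in rats. Cpt2, Acadm, Hadhb and Acadvl also lie right of 0 in mice and left of 0 in rats, and Mdh1 the reverse. The other genes with a ratio in both species do not turn. Acsl5, Acadl, Acaca, Me1, Cs and Elovl6 lie right of 0 in both species, and Hadha left of 0 in both.

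Of the nucleotide and phosphate group in rats, 1 of 8 measured members was at least 1.5-fold higher and 1 lower. Slc25a4 had 176.6, 367.3 and 407.7, with WT the low array, or 2.08-fold higher. Slc25a5 had 18610.5, 19635.5 and 19562.1, or 1.06-fold higher, and Slc25a3 9991.7, 11086.8 and 12125.9, or 1.11-fold higher. Slc25a25 had 3943.7, 2361.5 and 2099.8, or 1.67-fold lower. Slc25a33 had 254.4, 379.8 and 364.1, or 1.49-fold higher. Slc25a23 and Slc25a24, the other measured ATP-Mg and phosphate carriers, were 1.38-fold and 1.32-fold higher, opposite to Slc25a25. Among the iron carriers Slc25a37 had 245.6, 233.1 and 220.1, or 1.05-fold lower, and Slc25a28 was 1.38-fold higher. The list of mitochondrial content gave a median log2 ratio of 0.13 over 9 genes, with 1 of them at least 1.5-fold higher and 0 lower. Of 10 biogenesis regulators, 0 were higher and 1, Tfb1m, was 1.83-fold lower.

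Both species measured 30 of the members in the genotype comparison, with no array in common. The sign was the same in 15 of the 30 (50%), against 57.9% of 8303 genes. Slc25a4 was at least 1.5-fold higher in both mutants (3.33% of the 30, against 2.83% of all genes), and Slc25a30 and Slc25a42 were lower in both (6.67%, against 1.37%). None of the 30 was 1.5-fold apart in opposite directions. This was also rare over all genes, at 125 of 8303, so none among 30 is near that share. Across these 30 genes, which are not independent replicates, Pearson's r was 0.49 and Spearman's rho 0.26. Without Slc25a30 they were 0.29 and 0.19, so the value of r rests in large part on that gene. Over all genes r was 0.22.

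**Figure D4:**
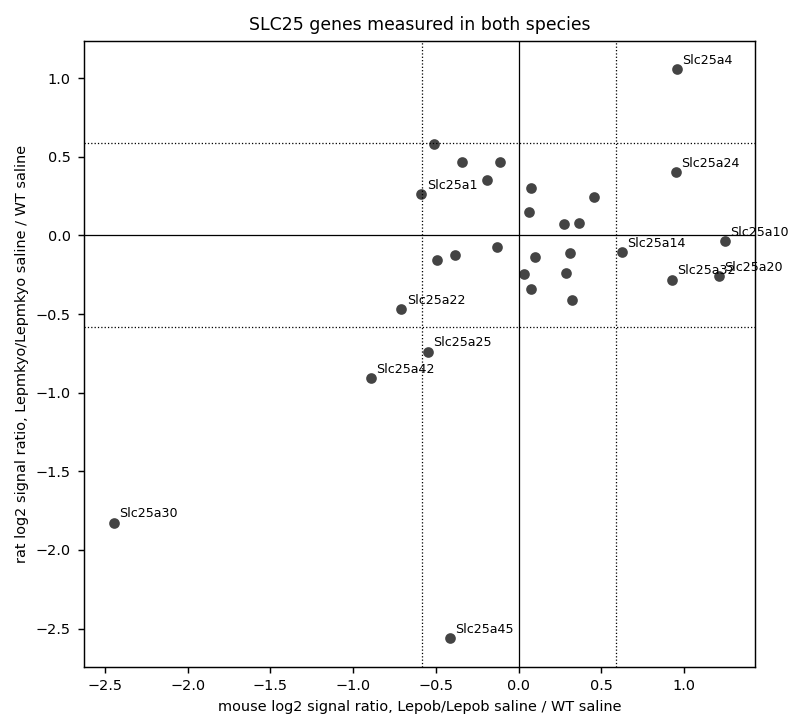
Log2 signal ratio of mutant saline over WT saline in mice (x axis) and rats (y axis) for the 30 SLC25 genes measured in both, 1 point per gene, dotted lines at 1.5-fold and names on genes past 1.5-fold in either species. Slc25a30 and Slc25a42 lie past 1.5-fold at the lower left, Slc25a4 at the upper right, and Slc25a10 and Slc25a20 near the rat zero line at the right.

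Leptin, 6 h after injection, left the carriers near the mutant saline level in mice. Of 37 members measured, 0 were 2-fold higher and 0 lower, where 0.182% and 0.243% of all genes were. At 1.5-fold 0 were higher, beside 2.18% of all genes, and 2 were lower, beside 2.21%. The median log2 ratio was -0.04 over the members and -0.00 over all genes. The 2 were Slc25a32, at 553.6 on saline and 340.1 on leptin, or 1.63-fold lower, and Slc25a14, at least 1.54-fold lower with the leptin array under the floor. Slc25a32 was not lower by that size on its other measured probe set (341.3 and 337.5). Slc25a30 was 1.12-fold and Slc25a42 1.25-fold higher with leptin, Slc25a20 1.02-fold and Slc25a10 1.11-fold lower, and Slc25a47 1.02-fold higher, a sign that turns with arrays centred on their median (log2 ratio -0.01). The leptin and genotype ratios share the mutant saline array, so an error on that array enters both, with opposite signs.

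In rats 0 of 33 members were 2-fold higher and 0 lower with leptin, where 0.237% and 0.278% of all genes were. At 1.5-fold 3 were higher, beside 2.11% of all genes, and 1 was lower, beside 2.59%. The 3 were Slc25a42, from 310.0 to 591.1 (1.91-fold), Slc25a48, from 123.5 to 210.2 (1.70-fold), and Slc25a45, from 112.5 to 176.2 (1.57-fold). These are genes that were at least 1.5-fold lower on the shared mutant saline array than in WT. The dimmer probe set of Slc25a32 did pass 2-fold, with 364.6 on saline and 167.4 on leptin, or 2.18-fold lower, where its brightest was 1.14-fold lower. With leptin, Slc25a42 lay level with WT, Slc25a48 somewhat below WT and Slc25a45 still far below. The log2 ratio of Slc25a42, 0.93, was 0.38 with the floor at the 75th percentile. It ranked 33 from the highest of 9705 genes. The dimmer probe set of Slc25a48, at 111.8 and 102.8, was lower with leptin. Slc25a29, the carrier of basic amino acids, had 325.4, 416.1 and 253.1, or 1.64-fold lower with leptin. Slc25a30 was 1.37-fold higher, Slc25a4 1.11-fold higher, Slc25a20 1.04-fold lower and Slc25a25 1.12-fold lower. Of the uncoupling proteins, Ucp2 was 2.19-fold lower with leptin.

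**Figure D5:**
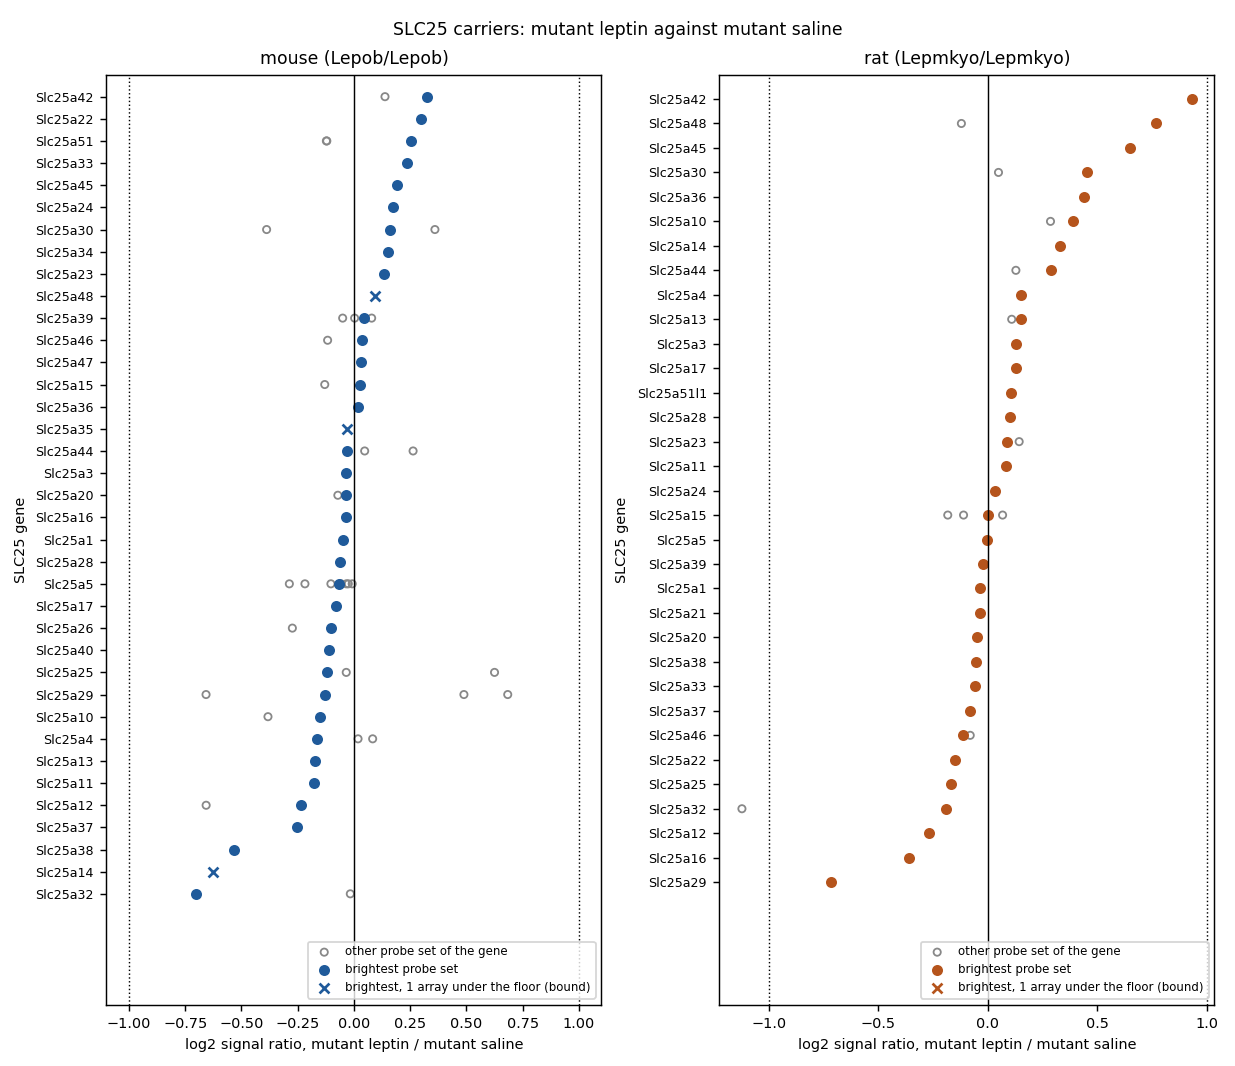
Log2 signal ratio of mutant leptin over mutant saline for each measured SLC25 gene in mice (left) and rats (right), sorted by ratio, with filled points for the brightest probe set, crosses where an array is under the floor, hollow points for other probe sets and dotted lines at 2-fold. No brightest probe set reaches 2-fold, and Slc25a42, Slc25a48 and Slc25a45 of rats lie farthest to the right.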

How the data were processed

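Liver total RNA was read on 6 Affymetrix arrays, 1 per group, per the labels. The deposited values are linear signal intensities, and the submitters' processing notes name MAS5 without a version as the authors' tool. The trimmed mean was 496 to 497 on every array, while medians ran from 77.0 to 91.9 in mice and from 93.6 to 99.3 in rats. Detection calls were not used here, so a floor stood in for them, and the number of arrays limits the precision.

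Values were used as deposited, with Python 3.11.15, numpy 2.4.6 and pandas 2.3.3. Genes were named by the annotation of the platform. In mice 34945 probe sets had 1 symbol, 932 several and 9160 none, and in rats 20826, 436 and 9780; the last 2 kinds were left out. Each gene was represented by the probe set brightest on average over the 3 arrays, and was measured where either array reached the floor. Log2 ratios were counted at 2-fold and 1.5-fold, next to all genes. Signals on all 3 arrays were given for members at 2-fold in that species, members at 1.5-fold in both species and 15 liver carriers. Some further members outside this rule, such as Slc25a14, Slc25a32 and Slc25a48, were also given this way. Members, lists and rules were chosen with earlier results of these data known. The counting was tested on simulated data. Alternatives were 2 scalings, 2 floors, 2 ways of using probe sets and the lower threshold.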

Additional observations from a re-analysis of the deposited data

Results flagged for a closer look

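Each of the following genes had genotype ratios of opposite sign in mice and rats that were at least 2-fold apart. The threshold was set with the values known, each ratio comes from a pair of arrays, and the difference between the species was not tested. For Slc25a20, the carnitine-acylcarnitine carrier, the log2 genotype ratio of mice minus that of rats was 1.47, from 1.21 and -0.26. For Slc25a10, the dicarboxylate carrier, it was 1.28, from 1.25 and -0.04. Its other mouse probe set has a ratio of 0.21, and its other rat probe set 0.17, on the side of the mouse value. For Slc25a32, the folate and FAD carrier, the difference was 1.21, from 0.92 and -0.28. Its other rat probe set has a ratio of 0.80, also on the side of the mouse value. For Slc25a33, a pyrimidine nucleotide carrier, the difference was -1.09, from -0.51 and 0.58.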

How the results depend on the processing

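With values as deposited, the members at 2-fold numbered 3 in each genotype comparison and 0 in each leptin comparison. For mouse genotype the count was 6 after quantile normalization and 7 with arrays centred on the median. It was 8 with the floor at the 25th percentile, 12 at 1.5-fold and 2 by the median over probe sets. For rat genotype it was 1 with the floor at the 75th percentile and 7 at 1.5-fold. For leptin it was 1 in each species with the lower floor, and at 1.5-fold 2 in mice and 4 in rats. The count of members at 1.5-fold in both species, 3, was 5 with the lower floor and 1 with the upper. Floors and thresholds set which dim genes count, and the cause of the other moves was not tested. The shares of all genes under the changed scalings and floors are not given here, so these counts have no background beside them. Slc25a20 and Slc25a30 in mice and Slc25a30 in rats were at 2-fold under all 7 settings, Slc25a10 in mice and Slc25a45 in rats under 6 of 7, and Slc25a4 in rats under all 6 that measured it. Of 382 values for single genes under these settings, 8 moved by more than 1 SD between probe sets, 15 had the other sign, and 0 of the values at 2-fold changed sign. The median of the members in mouse genotype, 0.05, ran from -0.09 to 0.30. With arrays centred on the median, Slc25a1 (-0.33) and Slc25a22 (-0.45) in mice were short of 1.5-fold. The 8 moved values include Slc25a15 (-0.53) and Slc25a25 (0.24, a bound) in mice, both by the median over probe sets. No paired analysis was possible because each group is 1 array, and for the same reason no replicate could be left out.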

Other observations

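Among rat probe sets left out for carrying several gene entries, 2 are annotated to Slc25a51, the NAD carrier, at 2 entries of the same symbol. Their signals were 1103.8, 1381.4 and 1295.5, and 704.5, 934.7 and 877.3, in the order WT saline, mutant saline, mutant leptin, so both were higher in the mutant, 1.25-fold and 1.33-fold. Slc25a51l1, the gene named after it, was lower on its own probe set, with 477.5, 276.2 and 297.1.

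In the RefSeq gene order of the mouse, 4 pairs of family genes are neighbours, and in 1 of them both genes have a ratio. Slc25a47 follows Slc25a29, and in the mutant mouse the first was 1.85-fold higher and the second 1.14-fold lower.

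Pathway lists around other carriers gave these counts at 1.5-fold in the genotype comparison. Of the malate-aspartate and glycerol phosphate shuttles, 3 of 6 genes were higher and 1 lower in mice, with Mdh2 1.97-fold higher and Gpd1 2.09-fold higher, and 0 were higher and 2 lower in rats, Got1 at 1.60-fold and Gpd2 at 1.53-fold. Of coenzyme A synthesis, 2 of 6 were higher in mice, Pank3 at 1.52-fold and Coasy at 1.53-fold, and 1 of 6 in rats, Ppcs at 2.71-fold. Of heme and iron genes, 2 of 6 were lower in mice and 1 of 5 was higher in rats. Alas2, the erythroid enzyme of heme synthesis, had 2771.2, 1142.4 and 1101.8 in mice and 181.4, 328.8 and 336.8 in rats. Of other mitochondrial membrane transporters, 1 of 8 was higher in mice and 1 of 9 in rats. In both species this was Tspo, the translocator protein of the outer membrane, 1.51-fold and 3.13-fold higher.

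Markers of further cell types stood as follows. Skeletal muscle markers Acta1, Ckm and Myh4 and testis marker Tnp1 were at or under the floor on the mouse and rat arrays, save Acta1 (88.4 on WT saline) and Ckm (86.4 on mutant saline) in mice. The testis marker Prm1 had 298.3, 149.8 and 235.6 in mice. Fabp4, of fat cells and macrophages, was 2.89-fold higher in the mutant mouse and at least 8.09-fold higher in the mutant rat, while Adipoq was under the floor on all arrays. Tat, a hepatocyte enzyme of tyrosine breakdown, had 5897.2, 849.7 and 960.5 in rats, or 6.94-fold lower. With leptin, 3 of 4 neutrophil markers were at least 2-fold higher in mice, among them S100a8 with 97.7, 311.7 and 887.4. The remaining marker, Csf3r, was 1.47-fold lower. Among the 2 neutrophil markers measured in rats, 0 were 1.5-fold higher or lower with leptin. The part of these cells and markers in the carrier values was not tested.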
